A study of Mus musculus with 40 samples.

Results

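Aldehyde dehydrogenase transcripts were measured in liver and kidney of mice given phenobarbital (PB) and of untreated controls. The 10 genes, Aldh1a1, Aldh1a7, Aldh1b1, Aldh1l1, Aldh2, Aldh3a2, Aldh4a1, Aldh7a1, Aldh8a1 and Aldh9a1, were taken by gene symbol from the platform annotation, and they carry 19 of the 45037 probe sets of the array and make up 10 of the 18193 genes that the annotation names. PB was dissolved in the drinking water at 0.05% (w/v) and offered to 10 male B6C3F1/Crl mice, hybrids of a C57BL/6 male and a C3H/He female, for 28 days, while 10 male mice of the same cross served as controls. The animals were 29 to 32 days old on delivery and were kept for 5 days before dosing. One Affymetrix Mouse430_2 array was hybridised per tissue and animal, 40 arrays in all, so that each of the groups PB liver, control liver, PB kidney and control kidney holds 10 animals and every liver has a kidney of the same animal. Both tissues were taken as whole pieces, and all values are therefore averages over the cell types of the organ. Liver is the organ in which PB promotes tumours in this cross, and kidney served the study as a tissue that is not a target.

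Aldehyde dehydrogenases oxidise aldehydes to carboxylic acids with NAD or NADP as electron acceptor. The liver uses them to clear acetaldehyde after ethanol, aldehydes from lipid peroxidation and the semialdehydes that arise when amino acids are broken down, and cytosolic members make retinoic acid from retinal. PB activates the nuclear receptor CAR, which is abundant in hepatocytes and induces enzymes of drug metabolism.

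The deposited values are MAS5 signals, one intensity on a linear scale for each probe set, brought by the authors to the same trimmed mean on every array. Median signals of the arrays were 33.6 to 37.2 in PB livers, 32.9 to 37 in control livers, 30 to 34.1 in PB kidneys and 31.4 to 34.9 in control kidneys, and no 2 arrays held the same values. Between animals of a group the log2 signals correlated with r between 0.90 and 0.95 across probe sets. A probe set was tested where its mean was at least 50 in a group compared, the level under which the study takes a gene as not expressed, and a call needed an adjusted p under 0.05 (limma, Benjamini-Hochberg over all probe sets tested). The number of animals limits the precision of every value. Cyp2b10, the classical target of CAR, averaged 11482 ± 1067 in PB livers and 25.4 ± 9.84 in control livers (SD, n = 10 each), and of the 3 genes used to check this response only Gstm3 passed the filter in kidney, where it was not called (adjusted p = 0.847, limma). The summed signal of 6 hepatocyte markers was 99337 to 148777 in PB livers and 112104 to 146638 in control livers, and that of 9 kidney tubule markers was 51056 to 63043 in PB kidneys and 48263 to 63674 in control kidneys.

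Aldh1a1 and Aldh1a7 lie on chromosome 19, and their promoters are shown first because the transcripts of both genes were higher with PB in both organs. RefSeq promoter windows of the build GRCm38.p6 were found for 8 of the 10 genes, with 2 start sites for Aldh1a1. The 150 bases before the start site follow for Aldh1a1 (chr19:20601818-20601967, plus strand, the start site whose window is most like that of Aldh1a7), Aldh1a7 (chr19:20727557-20727706, minus strand) and Aldh8a1 (chr10:21377150-21377299, plus strand), the third gene called with PB in liver. Capitals mark the octamer, the binding sequence of POU domain factors.
Aldh1a1: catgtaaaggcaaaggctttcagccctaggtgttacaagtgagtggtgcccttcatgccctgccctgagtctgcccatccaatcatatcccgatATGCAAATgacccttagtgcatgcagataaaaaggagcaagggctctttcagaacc
Aldh1a7: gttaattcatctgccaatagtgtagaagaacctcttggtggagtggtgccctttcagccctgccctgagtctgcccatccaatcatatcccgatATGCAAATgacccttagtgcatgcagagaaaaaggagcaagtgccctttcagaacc
Aldh8a1: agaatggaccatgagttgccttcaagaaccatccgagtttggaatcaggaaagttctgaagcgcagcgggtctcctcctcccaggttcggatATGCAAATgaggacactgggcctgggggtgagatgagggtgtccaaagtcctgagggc
Set side by side from the start site, the Aldh1a1 and Aldh1a7 windows had the same base at 94 of the last 100 positions, 108 of the last 150 and 129 of the full 250. The other Aldh1a1 start site shared only 63 of 250 positions with Aldh1a7. The octamer stood 56 to 49 bases before the start in Aldh1a1 and Aldh1a7 and 58 to 51 bases before it in Aldh8a1. On either strand of the 250 bases before the start it was found in these 3 genes of the 8 and in 1.6% of all 32851 windows, and it was chosen for the search after the sequences had been read. CCAAT was present in 6 of the 8 genes and in 33.8% of all windows, and AGGTCA, a motif bound by nuclear receptors, in 1 of the 8, Aldh1l1, and in 14.0% of all windows. TGACNNNGC, the core of the antioxidant response element, was found in Aldh9a1 alone and in 10.2% of all windows, and TATAAA in Aldh1a7 alone and in 12.4%. In the stretches printed no match overlapped another. A match is a description of the letters, not of a site in use.

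The first question was which of these enzymes responded to PB in the target organ. In liver, 18 of the 19 probe sets were tested, and 3, one each of Aldh1a1, Aldh1a7 and Aldh8a1, were higher in PB livers, while none was lower. Over all 18981 probe sets tested in liver, 5.88% were called higher and 6.43% lower. The median log2 difference of the 18 probe sets was 0.09, against -0.01 over all probe sets tested. None of the 19 reached the thresholds of the study, a ratio of means of 1.5 with a p of at most 0.001, in either organ.

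**Figure D1:**
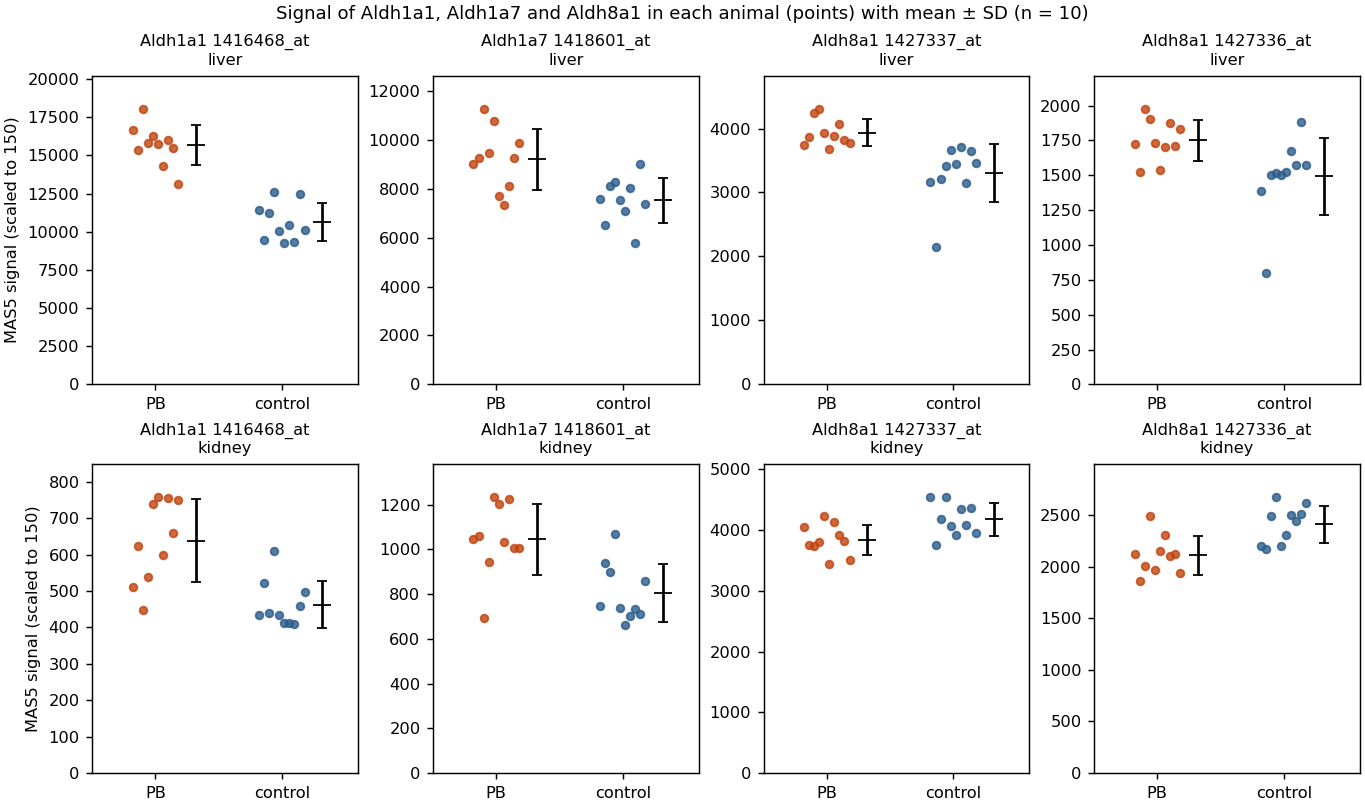
MAS5 signal (linear axis from 0) of Aldh1a1, Aldh1a7 and both Aldh8a1 probe sets in every animal, PB left and control right, with livers in the upper row and kidneys in the lower; points are animals and bars mean ± SD (n = 10). All 10 PB livers lie above all control livers for Aldh1a1, and Aldh8a1 lies higher with PB in liver and lower with PB in kidney.

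Aldh1a1, the cytosolic retinal dehydrogenase (probe set 1416468_at), had the lowest adjusted p of the family. Its signal ran from 13111 to 18051 with a median of 15757 in PB livers, and from 9239 to 12628 with a median of 10269 in control livers. The lowest PB liver thus lay above the highest control liver, which was the case for 1 of the 18 probe sets of the family and for 1.36% of all probe sets tested, counting both directions. The means were 15680 ± 1319 in PB livers and 10633 ± 1246 in control livers (SD, n = 10 each), a ratio of 1.47 and a log2 difference of 0.56 (SE 0.06, adjusted p = 1.16e-06, limma). It was called in every alternative fit run in liver, though its ratio missed the 1.5 of the study's thresholds, with log2 differences of 0.54 to 0.59 when single arrays were left out.

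Aldh1a7 (1418601_at) is a rodent relative of Aldh1a1 whose rat counterpart has been described as an aldehyde dehydrogenase inducible by PB. It had 7341 to 11275 (median 9248) in PB livers and 5795 to 8996 (median 7551) in control livers. The groups overlapped, and 7 of 10 PB livers exceeded every control liver. The mean was 9204 ± 1255 in PB livers and 7535 ± 917 in control livers, a log2 difference of 0.29 (SE 0.08, adjusted p = 0.0194, limma). How far the probes of Aldh1a7 and Aldh1a1, closely related genes, also bind the transcript of the other was not tested.

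Aldh8a1 encodes an enzyme of tryptophan breakdown that oxidises the semialdehyde of aminomuconate, and it can also oxidise retinal. Probe set 1427337_at gave 3681 to 4309 (median 3877) in PB livers and 2149 to 3718 (median 3428) in control livers. All but 1 of the PB livers exceeded every control liver, 9 of 10, and the mean of 3934 ± 213 in PB livers stood against 3301 ± 455 in control livers, a log2 difference of 0.27 (SE 0.07, adjusted p = 0.0181, limma). Probe set 1427336_at had 1526 to 1977 (median 1726) in PB livers and 799 to 1879 (median 1519) in control livers, with a difference of similar size that did not pass the threshold (log2 0.25, SE 0.10, adjusted p = 0.107, limma). The liver of control animal 2 had the lowest signal of all livers with both probe sets. Without it the log2 difference was 0.20 (adjusted p = 0.00352, limma) for 1427337_at and 0.16 (adjusted p = 0.0759, limma) for 1427336_at, and 1427336_at was called, with adjusted p = 0.0288, when all 40 arrays were fitted together.

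The mitochondrial enzymes that clear acetaldehyde did not pass the threshold in liver. Aldh2, the main acetaldehyde dehydrogenase, had 8921 to 11828 (median 10473) in PB livers and 9013 to 12243 (median 11024) in control livers with 1448143_at, the probe set that stands for the gene. The ranges nearly coincided, and the log2 difference was -0.07 (SE 0.05, adjusted p = 0.451, limma), with a 95% interval of -0.17 to 0.04. The other 4 Aldh2 probe sets had mean signals of 96.0 to 304.5 in PB livers and 96.3 to 305.4 in control livers and log2 differences between -0.02 and 0.17. Aldh1b1 (1451260_at), a relative of Aldh2 in the same compartment, averaged 439 ± 69.9 in PB livers and 462 ± 93.2 in control livers (log2 difference -0.06, SE 0.11, adjusted p = 0.773, limma).

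The enzymes of intermediary metabolism likewise gave no call in liver. Aldh1l1, which removes formyl groups from the folate pool, averaged 7115 ± 796 in PB livers and 7034 ± 741 in control livers with probe set 1424400_a_at (log2 difference 0.02, SE 0.07). Aldh4a1 (1452375_at), which completes the conversion of proline to glutamate, averaged 824 ± 121 in PB livers and 760 ± 98.2 in control livers (0.11, SE 0.09), and 4 of 10 PB livers exceeded every control liver. Aldh7a1 (1460167_at), which acts in lysine breakdown, averaged 4536 ± 515 in PB livers and 4306 ± 465 in control livers (0.07, SE 0.07). Aldh9a1, which acts in carnitine synthesis, had 5420 ± 425 in PB livers and 5735 ± 566 in control livers with 1436689_a_at (-0.08, SE 0.06) and a log2 difference of 0.02 with 1437398_a_at. Aldh3a2 (1415776_at), the fatty aldehyde dehydrogenase, varied widely between animals, with 335 to 638 (median 403) in PB livers and 216 to 667 (median 414) in control livers and a log2 difference of 0.19 (SE 0.16, adjusted p = 0.486, limma). The adjusted p of these probe sets lay between 0.407 and 0.902. The Aldh7a1 probe set 1415902_at had a mean signal under 50 in every group and was not tested, and 2 further probe sets, Aldh1l1 1424401_at (log2 difference 0.22, SE 0.18) and Aldh7a1 1448137_at (-0.04, SE 0.17), averaged 113 and 53.4 in PB livers and 97.9 and 55.3 in control livers.

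Some markers of liver cell types were called lower with PB, most often those of stellate cells and fibroblasts. Of 10 stellate cell and fibroblast markers tested, 5 were lower in PB livers, and their summed signal was 3411 to 4426 in PB livers and 3953 to 4936 in control livers. Of the hepatocyte markers 1 of 6 (Fgb), of the macrophage markers 1 of 10 (C1qa) and of the endothelial markers 1 of 7 (Stab2) were lower, and none was higher. Over all 9975 genes tested in liver, 7.72% were lower. The macrophage markers summed to 2637.6 to 5742.5 in PB livers and 3496.4 to 5500.8 in control livers. The endothelial markers summed to 1637.1 to 2267.7 in PB livers and 1696.6 to 2355.2 in control livers. The part of these cells in the levels of the aldehyde dehydrogenases was not tested, and in whole organs fewer cells of a type and less RNA per cell cannot be told apart.

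**Figure D2:**
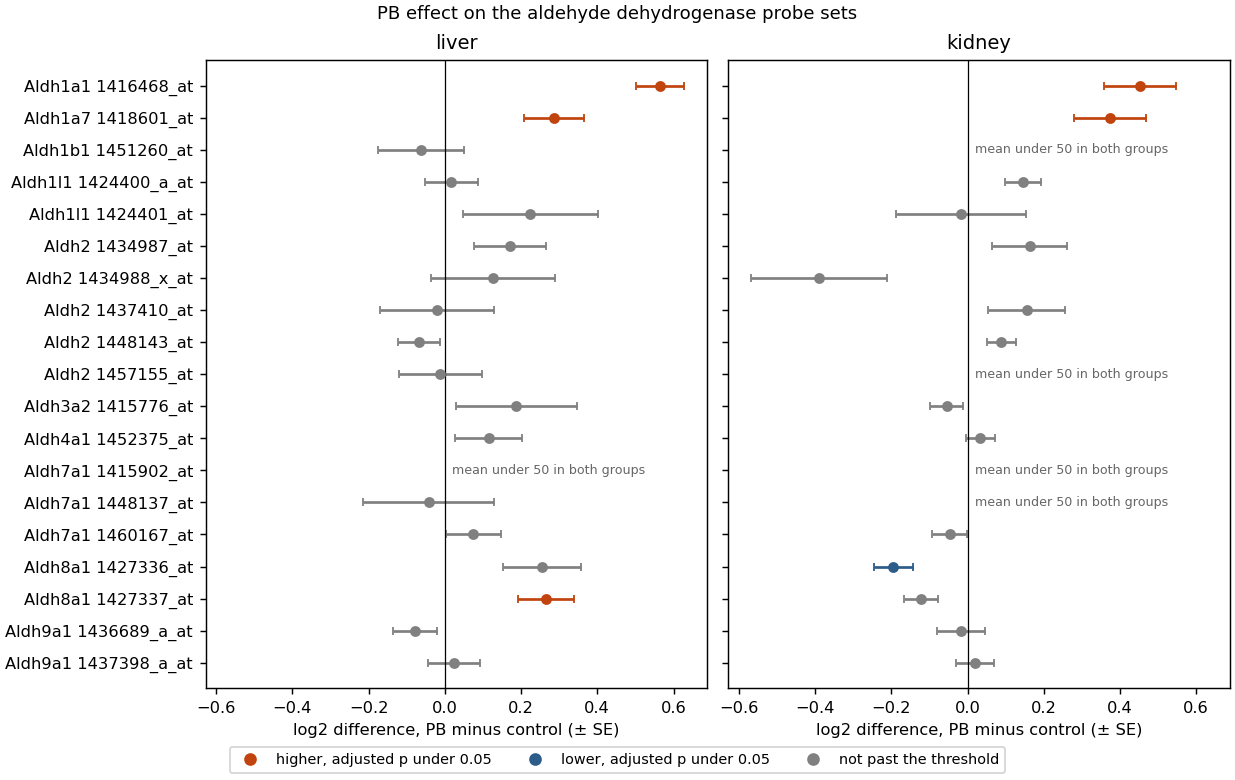
Log2 difference of PB minus control (x axis, ± SE) for each of the 19 probe sets (y axis), in liver on the left and kidney on the right. Red and blue points passed an adjusted p of 0.05 as higher and lower, and the Aldh1a1 and Aldh1a7 points lie to the right of 0 in both organs.

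In kidney, 15 of the 19 probe sets were tested, 2 were higher in PB kidneys and 1 was lower, where 1.79% of all 19229 probe sets tested were called higher and 1.47% lower. In none of the 15 did all PB values lie on one side of all control values, against 0.161% of all probe sets tested. Aldh1a1 had 449 to 757 (median 642) in PB kidneys and 410 to 610 (median 436) in control kidneys, and 6 of 10 PB kidneys exceeded every control kidney. Its mean was 638 ± 113 in PB kidneys and 463 ± 63.5 in control kidneys (SD, n = 10 each), a ratio of 1.38 and a log2 difference of 0.45 (SE 0.09, adjusted p = 0.00896, limma).

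Aldh1a7 moved in the same direction, with 693 to 1233 (median 1039) in PB kidneys and 663 to 1069 (median 742) in control kidneys. The groups overlapped more, since 3 of 10 PB kidneys exceeded every control kidney, and the log2 difference was 0.37 (SE 0.09, adjusted p = 0.0304, limma). The Aldh1a7 call was lost when any of 7 kidneys was left out (PB animals 15, 16 and 18 and control animals 1, 7, 8 and 9), with an adjusted p of at most 0.0589 and a log2 difference of 0.34 to 0.44 over all single omissions. By the methods' t-test on log2 signal its adjusted p was 0.0629, while the Aldh1a1 call stayed under all single omissions, with an adjusted p of at most 0.0206.

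Aldh8a1 went the other way in kidney. With probe set 1427336_at the signal was 1861 to 2491 (median 2117) in PB kidneys and 2177 to 2674 (median 2468) in control kidneys, so that 8 of 10 PB kidneys lay below every control kidney. The mean was 2110 ± 185 in PB kidneys and 2413 ± 179 in control kidneys, a log2 difference of -0.20 (SE 0.05, adjusted p = 0.0376, limma). This call was lost on leaving out any of 13 kidneys (PB animals 12, 13, 15, 16, 18, 19 and 20 and control animals 3, 4, 7, 8, 9 and 10), with an adjusted p of at most 0.0715, and by the methods' t-test (adjusted p = 0.0547). It was also lost with all 40 arrays in 1 fit (adjusted p = 0.357), without a trend in eBayes (adjusted p = 0.0600) and without a filter on signal (adjusted p = 0.0844). Probe set 1427337_at gave 3840 ± 252 in PB kidneys and 4178 ± 267 in control kidneys, a log2 difference of -0.12 that was not called (SE 0.04, adjusted p = 0.135, limma).

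No other aldehyde dehydrogenase was called in kidney. Aldh1l1 (1424400_a_at) came nearest, with 2345 to 3025 (median 2647) in PB kidneys and 2183 to 2630 (median 2416) in control kidneys. Here 7 of 10 PB kidneys exceeded every control kidney, and the log2 difference was 0.15 (SE 0.05, adjusted p = 0.0897, limma), which became 0.17 with an adjusted p of 0.0192 after quantile normalization. Aldh2 (1448143_at) averaged 3044 ± 176 in PB kidneys and 2862 ± 126 in control kidneys (log2 difference 0.09, SE 0.04, adjusted p = 0.218, limma). Aldh3a2 (-0.06), Aldh4a1 (0.03), Aldh7a1 (1460167_at, -0.05) and Aldh9a1 (-0.02 and 0.02) all lay within 0.06 of 0 on the log2 scale. Aldh1b1 was under the level of 50 in all 20 kidneys, with means of 23.6 ± 7.51 in PB kidneys and 27.7 ± 4.38 in control kidneys, and was not tested there. One Aldh2 probe set (1457155_at) and 2 of Aldh7a1 (1415902_at and 1448137_at) were also under 50 in all kidneys, and the Aldh2 probe set 1434988_x_at had a log2 difference of -0.39 (SE 0.18, adjusted p = 0.251, limma).

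Fat cell markers were higher in the same PB kidneys, 4 of 5 tested (Adipoq, Fabp4, Ucp1 and Cidea). The summed signal of the 6 fat cell markers on the array was 940 to 7720 (median 2317) in PB kidneys and 828.8 to 1570 (median 992) in control kidneys, and 8 of 10 PB kidneys exceeded every control kidney. Of 9 stellate cell and fibroblast markers tested in kidney 1, Lum, was higher (log2 difference 0.66), with a summed signal of 2058 to 2806 in PB kidneys and 1604 to 2906 in control kidneys. Lep, which defines fat cells too, had a mean of 3.82 in PB kidneys and 1.76 in control kidneys. Leaving out the 3 PB kidneys with the highest sums (animals 12, 15 and 17), a choice made after seeing the data, gave log2 differences of 0.43 for Aldh1a1 (adjusted p = 0.0453), 0.33 for Aldh1a7 (adjusted p = 0.132) and -0.18 for Aldh8a1 1427336_at (adjusted p = 0.113). With the log2 sum as a covariate, also added after seeing the data, the differences were 0.34 for Aldh1a1 (SE 0.13, adjusted p = 0.375), 0.26 for Aldh1a7 (adjusted p = 0.534) and -0.16 for Aldh8a1 1427336_at (adjusted p = 0.486, all from limma). None of the family was called in that fit, and 31 of all probe sets were, against 627 without the covariate. The covariate and the treatment overlap strongly, and their parts in these differences cannot be told apart.

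**Figure D3:**
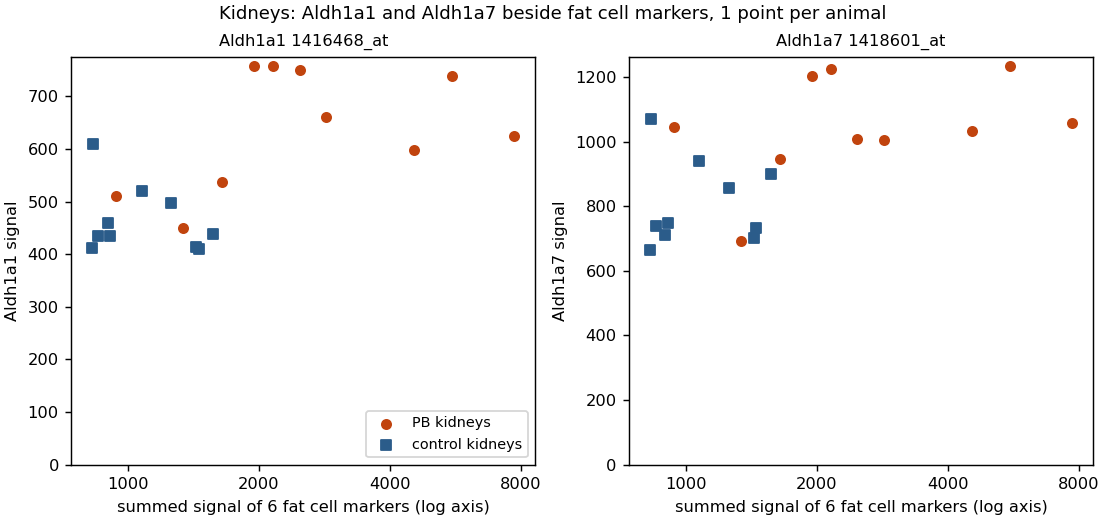
Signal of Aldh1a1 (left) and Aldh1a7 (right) on a linear y axis against the summed signal of 6 fat cell markers on a log x axis, 1 point per kidney, PB kidneys as circles and control kidneys as squares. PB kidneys reach sums of 7720 and control kidneys 1570. Aldh1a1 signals run from 449 to 757 in PB kidneys and from 410 to 610 in control kidneys.

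Whether PB acted differently in the organs was tested as the PB effect in liver minus that in kidney over all 40 arrays. Of 18 probe sets tested 2 were called, both positive and both of Aldh8a1, where 3.13% of all 21866 probe sets were called positive and 3.08% negative. The Aldh8a1 difference was 0.45 with 1427336_at (SE 0.12, adjusted p = 0.0145, limma) and 0.39 with 1427337_at (SE 0.09, adjusted p = 0.00324, limma). Without animal 2 it was 0.37 (adjusted p = 0.00165) and 0.34 (adjusted p = 0.000166). After centring of the arrays on the median, 60.9% of all calls were positive, against 50.4% as deposited, and the Aldh8a1 calls stayed. The effects on Aldh1a1 and Aldh1a7 were not shown to differ between organs, with differences of 0.11 (SE 0.12, 95% interval -0.12 to 0.34, adjusted p = 0.659, limma) and -0.09 (SE 0.13, 95% interval -0.34 to 0.17, adjusted p = 0.773, limma).

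**Figure D4:**
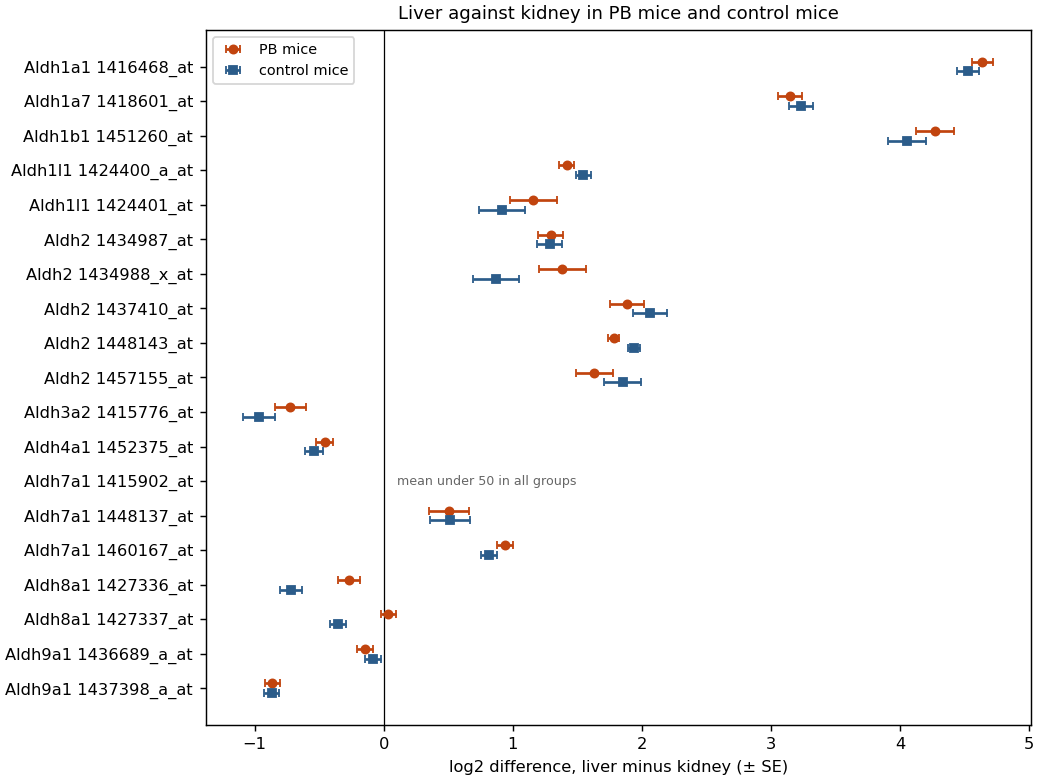
Log2 difference of liver minus kidney (x axis, ± SE) for each probe set (y axis), in PB mice (circles) and control mice (squares). Aldh1a1, Aldh1b1 and Aldh1a7 lie farthest to the right, and the Aldh8a1 points of PB mice lie to the right of those of control mice.

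The organs differed far more than the treatments. Of 18 probe sets tested 12 were higher in liver, 5 were lower and 1 was not called, in PB mice and also in control mice. Over all probe sets 34.9% were higher and 44.9% lower in livers of PB mice, and 35.3% higher and 43.6% lower in livers of control mice. Of the calls 43.7% were higher in PB mice and 44.7% in control mice, which became 55.4% and 55.2% after centring of the arrays on the median. Aldh1a1 averaged 15680 in PB livers and 638 in PB kidneys, a ratio of 24.6 (log2 4.64, SE 0.08), and 10633 in control livers and 463 in control kidneys, a ratio of 23.0 (log2 4.52, SE 0.08). Aldh1a7 had ratios of liver to kidney of 8.81 in PB mice and 9.35 in control mice. Aldh1b1, under 50 in kidney, was at least 8.79-fold higher in liver in PB mice and at least 9.24-fold in control mice. For these genes the lowest liver lay above the highest kidney. This was not particular to them, since it also held for Aldh2 (1448143_at), Aldh1l1 (1424400_a_at) and Aldh7a1 (1460167_at). How often it held over all probe sets was not counted, so it is a description only.

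Aldh2 (1448143_at, ratio 3.44 in PB mice and 3.84 in control mice), Aldh1l1 (1424400_a_at, 2.68 and 2.93) and Aldh7a1 (1460167_at, 1.92 and 1.77) were also higher in liver. The enzymes of fatty aldehydes and proline were higher in kidney instead. Aldh3a2 averaged 454 in PB livers and 728 in PB kidneys (log2 difference -0.72, SE 0.12) and 401 in control livers and 758 in control kidneys (-0.97, SE 0.12). Aldh4a1 had log2 differences of -0.46 in PB mice and -0.54 in control mice. Aldh9a1 was lower in liver with 1437398_a_at (-0.86 in PB mice and -0.87 in control mice), while the values of 1436689_a_at depended on the scaling. As deposited, its log2 difference was -0.15 in PB mice (adjusted p = 0.0273, limma), a call lost without PB animals 14, 16, 19 or 20 (adjusted p of at most 0.0751), and -0.09 in control mice, which was not called (adjusted p = 0.196, limma). After quantile normalization the differences were -0.74 in PB mice and -0.60 in control mice, both called, and after centring of the arrays on the median 0.06 and 0.09, neither called.

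For Aldh8a1 the log2 difference of liver minus kidney was higher in PB mice than in control mice, by the test of the PB effect between organs given above. With 1427337_at the highest mean was that of control kidneys (4178), followed by PB livers (3934), PB kidneys (3840) and control livers (3301). The neighbours PB liver and PB kidney were not called as different (log2 difference 0.04, SE 0.06, adjusted p = 0.593, limma). Control livers were lower than control kidneys (log2 difference -0.35, SE 0.06, adjusted p = 1.92e-06, limma). PB livers against control kidneys, and PB kidneys against control livers, were not compared. The difference of 0.04 turned to -0.34 after quantile normalization and to 0.24 after centring on the median, both called. Centring moved the median log2 difference of all probe sets between the organs by 0.21 in PB mice and 0.18 in control mice. With 1427336_at liver was lower than kidney in PB mice (-0.27, SE 0.08, adjusted p = 0.00371, limma), a call lost after centring on the median, and in control mice (-0.72, SE 0.08).

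Animals of a group also varied together in these transcripts. After subtraction of the 4 group means, Aldh1a1 and Aldh1a7 correlated over the 40 arrays with r = 0.75 (Spearman rho 0.67, r = 0.63 without the 2 arrays farthest from the median), 0.60 over the livers and 0.83 over the kidneys. Among 8449 other genes with a mean of at least 50 in all 4 groups, Aldh1a7 was the gene most like Aldh1a1, followed by Cyp2d9 (r = 0.72) and Apom (r = 0.71), and Aldh1a1 was the gene most like Aldh1a7, followed by Ndufa12 (r = 0.70) and Qprt (r = 0.66). These values are descriptions, since arrays share scaling and organs share animals. For Aldh1a1 and Aldh1a7, binding of the probes to the transcript of the other gene was also not tested. The genes most like the others were Sar1b, Aco1 and Nipsnap1 for Aldh1b1 (r = 0.64 each), Hgd (0.88), Ak3 and Abat for Aldh1l1, Gstk1 (0.82), Cyp2d26 and Aldh7a1 for Aldh2, and Me1 (0.83), Nqo2 and Ehhadh for Aldh3a2. For Aldh4a1 they were Abhd14b (0.79), Sardh and Sucnr1, for Aldh7a1 Cmbl (0.89), Ndufa6 and Hadh, for Aldh8a1 Degs1 (0.83), Shmt2 and Amacr, and for Aldh9a1 Atp5c1 (0.89), Uqcrb and Got2. The Aldh8a1 value rested partly on the farthest arrays, since r with Degs1 was 0.55 without 2 of them. For Aldh1b1 the kidney arrays hold only signals under 50. Its r with Sar1b, Aco1 and Nipsnap1 was 0.60, 0.48 and 0.62 over the livers and 0.72, 0.75 and 0.76 over the kidneys. Without the 2 farthest arrays r of Aldh1b1 with Aco1 was 0.47.

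Of 10 further aldehyde dehydrogenases on the array only 3 reached the level of 50 in liver, and 1 of them was called higher and 1 lower, where 6.45% of the 9975 genes tested were higher and 7.72% lower. Aldh6a1, which breaks down the semialdehydes of valine and pyrimidines, was higher in PB livers (5581 ± 397 in PB livers and 4970 ± 418 in control livers, log2 difference 0.17, adjusted p = 0.0396, limma). Aldh16a1 was lower with the probe set that stands for the gene (228 ± 40.8 in PB livers and 318 ± 66.1 in control livers, -0.47, adjusted p = 0.00768, limma). The other Aldh16a1 probe set averaged 236 ± 27.2 in PB livers and 256 ± 28.5 in control livers, a smaller difference in the same direction. In kidney 6 of the 10 were tested and none was called, where 2.17% of the 10082 genes tested were higher and 1.57% lower. Aldh1a2 and Aldh1a3, the other retinal dehydrogenases, were under 50 in liver and averaged 65.8 and 76.6 in PB kidneys and 64.9 and 55.6 in control kidneys.

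Genes that feed or follow these enzymes were counted in the same fits. Over all genes tested, 6.45% were higher and 7.72% lower in liver, and 2.17% higher and 1.57% lower in kidney. Of 17 genes of retinoid oxidation and handling tested in liver 3 were higher and 1 lower. Cyp26a1, which degrades retinoic acid, averaged 942 ± 537 in PB livers and 310 ± 271 in control livers (log2 difference 1.82, adjusted p = 0.00145, limma). Rarb, a retinoic acid receptor, averaged 90.6 in PB livers and 47.1 in control livers, and Rarres1, a gene known to respond to retinoic acid, had a log2 difference of 0.55. Lrat, which esterifies retinol and also marks stellate cells, was lower (-0.90). In kidney 2 of 11 were lower, Cyp26b1, which also degrades retinoic acid (20.2 in PB kidneys and 53.9 in control kidneys), and Rdh10, which makes retinal from retinol (log2 difference -0.33).

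Among other enzymes that clear or make aldehydes 4 of 12 tested were higher in PB livers and 1 was lower. Sgpl1, which releases a fatty aldehyde from sphingosine phosphate, had a log2 difference of 0.80, Aox1, an aldehyde oxidase, of 0.74, and Cbr1, a carbonyl reductase, of 0.46. Aox1 averaged 1846 ± 133 in PB livers and 1118 ± 193 in control livers, while Aox3, the related oxidase, was the gene that was lower (5010 ± 720 in PB livers and 6022 ± 788 in control livers, adjusted p = 0.0474, limma). In kidney 2 of 10 were higher, Maob (0.42), which makes aldehydes from amines, and Cbr1 (0.24). Of 5 alcohol dehydrogenases tested in liver 1, Adhfe1, was higher (0.24), and none of 4 was called in kidney.

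Around Aldh8a1, 10 genes of tryptophan and kynurenine breakdown were tested in liver. The counts of this paragraph stand beside 6.45% higher and 7.72% lower over all genes tested in liver. In kidney these shares were 2.17% and 1.57%. Whether any of these lists differs from all genes was not tested. Afmid, which forms kynurenine, was higher (1067 ± 159 in PB livers and 751 ± 121 in control livers, log2 difference 0.51, adjusted p = 0.00148, limma), and Kmo, which hydroxylates kynurenine, was lower (1948 ± 59.7 in PB livers and 2236 ± 177 in control livers, -0.20, adjusted p = 0.00395, limma). In kidney 1 of 7 was called, Kyat1, a kynurenine aminotransferase, which was lower (log2 difference -0.33). Of 10 lysine breakdown genes in liver Crym was higher (0.42) and Aadat lower (-0.37), and of 10 in kidney Dhtkd1 was higher (0.26). Of 14 folate enzymes in liver Dmgdh (-0.45) and Mthfd2 (-0.41) were lower and Shmt2 (0.27), which is also counted with carnitine synthesis, was higher. None of 14 folate genes and none of 4 carnitine genes was called in kidney, and none of 7 proline and ornithine genes in either organ.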

How the data were processed

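Livers and kidneys of 20 mice were hybridised to 40 Affymetrix Mouse430_2 arrays. The authors deposited MAS5 signals (intensity, linear scale) after global scaling with a target of 150, and GCOS and MAS5 are the tools in the submitters' processing notes, with no version. With 2% of probe sets trimmed at each end, array means were 149.0 to 149.3. Tissue, treatment and animal of each array were taken from the sample labels. No scanner files or detection calls were used here.

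Gene symbols came from the annotation of the platform and were updated by Entrez number through a RefSeq table of GRCm38.p6. Of the 45037 probe sets, 34945 had 1 symbol, 932 had several, 9160 had none, and 34741 were matched by Entrez number. Of the family, 2 probe sets with several symbols were left out. The 10 genes and the 18 other gene lists were chosen with earlier results of these data known. Of each other list up to 3 genes with the largest differences among those called are named, and Rarres1 and Aox3 were added after their values were seen. Counts of genes used, per gene, the probe set of highest mean in the organ.

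A group mean of 50 or more was required in a comparison, signals under 1 were set to 1, and log2 signals were compared with limma 3.58.1 in R 4.3.3 (lmFit, then eBayes with an intensity trend, as two-sided tests), with Benjamini-Hochberg adjustment over all probe sets tested. PB was compared with control within the 20 arrays of an organ. The difference of the PB effect and the difference between organs were fitted over all 40 arrays. Ratios are of arithmetic means, and where the lower mean was under 50 the bound printed is the higher mean over 50. Intervals (95%) are normal, from the SE. The fits were tested on simulated data. Promoters of 300 bases were read from a RefSeq table, of which the 250 before the start site were searched on both strands with Python 3.11.15 and pandas.

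The donor numbers of the labels pair each liver with the kidney of that animal. In 15416 probe sets, deviations from the group mean correlated between the organs of an animal with a median r of 0.0755 (-0.0740 to 0.211), against -0.0104 for different animals, and 9 of 20 animals exceeded 0.1. The animal as a fixed or random block was an alternative. The filter was also raised to 100 or dropped, signals were floored at 20 or 50 or raised by 16 before log2, and arrays were quantile normalized or centred on their medians. Student's and Welch's t, eBayes without trend or robust, all 40 arrays in 1 fit, 1 probe set per gene, the number in the description label as a covariate and leaving out each array or animal were also run. The protein sequences of the family and the methylation and chromatin experiments were not analysed here.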

Additional observations from a re-analysis of the deposited data

Results flagged for a closer look

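The liver of control animal 2 lay far below the other 9 control livers with 5 probe sets. It had 799.4 with Aldh8a1 1427336_at (next lowest 1391), 2148.5 with Aldh8a1 1427337_at (next 3144), 5292.6 with Aldh1l1 1424400_a_at (next 6579), 531.6 with Aldh4a1 1452375_at (next 710.5) and 988 with Aldh9a1 1437398_a_at (next 1231). Without it the log2 difference of PB minus control in liver was 0.20 for Aldh8a1 1427337_at, -0.03 for Aldh1l1, 0.06 for Aldh4a1 and -0.02 for Aldh9a1 1437398_a_at.

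Single animals also stood apart in 5 other groups. Aldh1a7 had 692.8 in the PB kidney of animal 13, below 945.2 in the next. Aldh3a2 had 816.1 in the PB kidney of animal 11, above 746.6 in the next, and 666.7 in the liver of control animal 9, above 425.3. Aldh2 1437410_at had 123 in the PB kidney of animal 20, above 86.1. Aldh7a1 1415902_at, under the level of 50 in every group, had 7.8 in the kidney of control animal 8, above 4.9. Of 76 groups examined 10 held such a value, on 6 arrays, where chance gives about 1 in 20 groups, or 3.8.

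The PB effect on Aldh8a1 differed between liver and kidney by 0.45 (1427336_at) and 0.39 (1427337_at) on the log2 scale, by the test of the difference itself over 40 arrays (limma, adjusted p = 0.0145 and 0.00324). It had opposite signs in the organs, 0.25 and 0.27 in liver and -0.20 and -0.12 in kidney. Neither probe set was called in both organs. In liver only 1427337_at was called, and in kidney only 1427336_at, a call lost on leaving out any of 13 kidneys.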

How the results depend on the processing

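Over all alternatives 2921 values were computed, and 2789 kept their direction and side of the threshold or stayed within 1.5 times the count. Aldh1a1, Aldh1a7 and Aldh8a1 1427337_at were called in liver in all fits and single omissions run, though not by the thresholds of the study, and both Aldh8a1 calls of the difference between organs stayed as well. With the animal as a replicate block, fixed or random, the difference between organs in the PB effect gave 1287 and 1579 calls, against 1357 without it, and the block changed no call of the family. In liver, 1541 calls were made with 1 probe set per gene, where fewer features are tested, against 2336, and 0 of the family passed the thresholds of the study. In kidney, 627 calls became 335 without a filter on signal, 367 by Welch's t, 200 with all 40 arrays in 1 fit, and, in fits chosen after seeing the data, 310 without the 3 PB kidneys of highest fat marker signal and 31 with that signal as a covariate. Of the 3 calls of the family in kidney, 1 was left without a filter, by each of the 3 t-tests and without those 3 kidneys, and 0 with the covariate. Leaving out single kidneys gave 393 to 852 calls (393 without control animal 8, 411 without PB animal 19) and 1 to 3 of the family. In the difference between organs 4 of the family were called after quantile normalization, against 2. Those added were negative, Aldh1l1 1424400_a_at (-0.21, adjusted p = 0.0481, limma) and Aldh2 1448143_at (-0.20, adjusted p = 0.0109, limma). Without a filter 27191 probe sets differed between organs in PB mice, against 17062, and 26004 in control mice, against 16703. The causes were not tested.

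The sign changed for log2 differences near 0. In liver these were Aldh1l1 1424400_a_at (-0.026, quantile), Aldh2 1437410_at (0.0024, quantile) and Aldh2 1457155_at (0.0054, centred), and in kidney Aldh9a1 1436689_a_at (0.034 quantile, 0.0048 without the 3 kidneys, 0.026 with the covariate) and Aldh1l1 1424401_at (0.013, covariate). In the difference between organs they were Aldh1b1 (-0.062, floor of 50), Aldh9a1 1437398_a_at (-0.042, quantile) and Aldh7a1 1448137_at (0.018, centred). Between organs, Aldh8a1 1427337_at turned to -0.34 in PB mice (quantile), the only reversal that was called, and Aldh9a1 1436689_a_at to 0.059 in PB mice and 0.090 in control mice (centred). Single omissions gave in liver -0.028 to 0.041 for Aldh1l1 1424400_a_at, -0.020 to 0.045 for Aldh9a1 1437398_a_at, -0.10 to 0.056 for Aldh2 1437410_at, -0.050 to 0.046 for Aldh2 1457155_at and -0.13 to 0.027 for Aldh7a1 1448137_at. In kidney they gave -0.10 to 0.034 for Aldh1l1 1424401_at, -0.048 to 0.012 for Aldh9a1 1436689_a_at and -0.00067 to 0.039 for Aldh9a1 1437398_a_at. In the difference between organs they gave -0.034 to 0.058 for Aldh2 1434987_at, -0.047 to 0.039 for Aldh9a1 1437398_a_at and -0.088 to 0.084 for Aldh7a1 1448137_at.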
